A study of Mus musculus with 12 samples.

Results

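The mitochondrial respiratory chain and ATP synthase were followed through 101 genes, chosen by symbol from the 35999 symbols of the count table: the subunit families of complexes I to V under their usual names (Nduf, Sdh, Uqcr, Cox and Atp5, with numbered pseudogene names left out) and the protein-coding genes of mitochondrial DNA. Of these, 88 are nuclear and 13 are mitochondrially encoded. The choice used names and no measured value. By complex, the nuclear genes were 38 for complex I, 4 for complex II, 8 for complex III, 21 for complex IV (Ndufa4 and Ndufa4l2 counted there) and 17 for complex V. The name rule does not reach Ndufab1 or Cyc1, which are given with the other subunits below, and it takes in 4 genes that the annotation calls processed pseudogenes: Ndufb4c, which was tested, and Ndufa11b, Cox6c2 and Ndufs6b, which were not.

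The study grew tumours of AB1-HA, a mouse mesothelioma line, under the skin of male BALB/c mice 8 to 10 weeks of age. One group of 6 tumours came from mice given PBS, the other group of 6 from mice given 100 µg of a monoclonal antibody to CD4. Both groups were dosed on day -3, day 0 (the day of tumour inoculation) and day 7. Tumours were removed on day 9, and total RNA was depleted of ribosomal and globin RNA before sequencing, so that mitochondrial ribosomal RNA says nothing here. Every mouse carried the same implanted line, and no label gives an antibody clone, ties a tumour to a named mouse or states a batch. CD8 T cells and B cells are not the target of an antibody to CD4, and cell numbers were not measured here. The p-values set the difference between the groups against the spread between tumours of a group, which may in part be technical. Nothing states if the groups were processed apart, and such a difference could not be told from the treatment.

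Electrons from NADH enter the chain at complex I and those from succinate at complex II, and pass through complexes III and IV to oxygen. Complexes I, III and IV pump protons, and complex V, the ATP synthase, uses the gradient to make ATP. Most subunits are imported products of nuclear genes, whereas a small set of core subunits of complexes I, III, IV and V is transcribed from mitochondrial DNA as long polycistronic RNAs. Several complex IV subunits come in a widely expressed form and a form that predominates in heart and skeletal muscle.

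Mitochondrial DNA has copies in nuclear chromosomes, and these decide how some of the values below can be read. A 90-base stretch of mt-Co2 (bases 445 to 534 of the transcript, plus strand of the mitochondrial genome, chrM:7457-7546, GRCm38) is shown with its copies on chromosome 1 (Gm28661, chr1:24615032-24615121, minus strand) and chromosome 2 (Gm13341, chr2:22587441-22587530, minus strand), all inside annotated exons. Sequences were taken from the GENCODE transcripts, and capitals mark the bases of Gm13341 that differ from mt-Co2.
mt-Co2: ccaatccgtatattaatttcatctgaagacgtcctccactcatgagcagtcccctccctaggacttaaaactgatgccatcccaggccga
Gm28661: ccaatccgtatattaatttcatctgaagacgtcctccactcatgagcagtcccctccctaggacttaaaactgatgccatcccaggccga
Gm13341: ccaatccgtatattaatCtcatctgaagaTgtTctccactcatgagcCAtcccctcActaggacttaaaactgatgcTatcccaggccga
Gm28661 was identical to mt-Co2 over the 681 bases it aligns with, so a read from either locus fits both. Gm13341 had 95.9% identity over 684 bases, with 7 of its 16 mismatches in the stretch shown.

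The promoters of the nuclear genes were examined for the motifs of factors known to act on respiratory genes. RefSeq promoter windows (GRCm38.p6, 250 bases before to 50 after the start) were matched for 68 of the 88 nuclear genes. The 120 bases before the start are printed for the only gene that passed the test (Ndufb2), for a complex II subunit near the threshold (Sdhd), for a widely expressed complex IV isoform (Cox6a1) and for a pair of muscle isoforms (Cox7a1, Cox8b). Capitals mark NRF1 (GCGCANGCGC), ETS (CCGGAAG) and CCAAT box (CCAAT) matches on either strand.
Ndufb2 chr6:39592445-39592564 (plus strand): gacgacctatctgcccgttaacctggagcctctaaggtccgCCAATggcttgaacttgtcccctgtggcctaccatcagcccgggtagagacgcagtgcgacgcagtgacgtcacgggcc
Sdhd chr9:50603850-50603969 (minus strand): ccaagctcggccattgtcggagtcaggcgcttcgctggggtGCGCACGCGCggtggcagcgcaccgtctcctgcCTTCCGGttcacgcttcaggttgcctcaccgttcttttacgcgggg
Cox6a1 chr5:115348959-115349078 (minus strand): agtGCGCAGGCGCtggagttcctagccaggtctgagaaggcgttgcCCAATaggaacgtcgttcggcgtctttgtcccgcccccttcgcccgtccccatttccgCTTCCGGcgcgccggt
Cox7a1 chr7:30184051-30184170 (plus strand): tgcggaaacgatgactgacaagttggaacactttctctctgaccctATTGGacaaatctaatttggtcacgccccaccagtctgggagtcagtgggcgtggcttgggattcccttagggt
Cox8b chr7:140900447-140900566 (minus strand): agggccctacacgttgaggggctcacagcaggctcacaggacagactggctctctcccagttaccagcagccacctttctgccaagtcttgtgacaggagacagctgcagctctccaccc
Over the full windows, the NRF1 motif was found in 17 of the 68 promoters (25%) and in 5.19% of the promoters of 27025 genes. The ETS motif was in 16 (23.5%) and in 9.93% of all, and one or both of these motifs were in 29 (42.6%) and in 14% of all. Among 17491 protein-coding genes the shares were 7.17% for NRF1 and 12.9% for ETS. The CCAAT box was in 44.1% of these promoters and 41.1% of all, and the TATA box (TATAAA) was found in 7 (10.3%, against 15.7% of all). The MEF2 motif of muscle genes was in 0 of 68, against 3.70% of all. Cox7a1 and Cox8b are among the 68, and Cox6a2 is not. The printed windows do not stand for the other genes. Cox7a2 and Cox8a, the widely expressed partners of Cox7a1 and Cox8b, had no match in their 120 bases before the start. Atp5c1 had none there either, and Cox6b1 had an ETS and a CCAAT match. Over the full windows, Cox8a had ETS and CCAAT matches and Cox7a2 had none. These are matches of letters, counted separately for each motif, and no binding was measured.

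As background to the results, library totals were 30.75 to 62.06 M estimated counts (M, 1000000) and were on average larger after anti-CD4 (46.4 ± 10.04 M, SD, n = 6) than after PBS (36.1 ± 4.03 M). Cd4 itself was lower after anti-CD4 (log2 fold change -2.26, SE 0.28, adjusted p = 0.00298, edgeR), with groups that did not overlap. Of 9 mesothelial markers, 5 passed the filter on low counts, with log2 fold changes from -0.20 to 0.79. Msln was abundant (92.6 to 155 CPM) and Wt1 present at 1.09 to 2.14 CPM, while Calb2 and Krt18 stayed at or near 0 in all 12 tumours. The list also held Krt8 and Lrrn4. Krt19 was at most 0.51 CPM and Upk3b at most 0.28 CPM after PBS and 1.90 CPM after anti-CD4. Pdpn, which other stromal cells also express, was the one marker of the list that passed the test: it rose from 24.6 to 30.03 CPM after PBS to 32.1 to 37.5 CPM after anti-CD4, with ranges that did not overlap (log2 fold change 0.33, adjusted p = 0.0186). It missed the threshold without anti-CD4 2 (adjusted p = 0.0553), with the replicate block and with library total as a covariate, and its part in the respiratory chain values was not tested. CPM values, counts per 1000000, are on library sizes scaled by TMM throughout. In whole tumour tissue, fewer cells of a type and less RNA per cell cannot be told apart.

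Respiratory chain mRNAs differed little between the groups. With edgeR's quasi-likelihood test at an adjusted p under 0.05, 0 of the 82 nuclear genes that passed the filter on low counts were higher after anti-CD4 and 1 was lower, against 2.95% of all 17940 tested genes called higher (529) and 2.33% called lower (418). None of the 13 mitochondrially encoded mRNAs was called in either direction. Under upper quartile scaling, the counts over all genes became 179 higher and 325 lower, and those of these genes did not change. Before adjustment, 8 nuclear genes were higher and 3 lower at p under 0.05, and of the mitochondrial mRNAs 0 were higher and 1 was lower, beside 13.4% and 14.7% of all tested genes. DESeq2 called 4 of 86 nuclear genes higher, beside 4.91% of the 27373 genes with any count, and called Ndufb2 and 1 mitochondrial mRNA lower, beside 4.31%. No tested gene of the 95 had CPM ranges that kept the groups apart, beside 1.93% (higher) and 1.2% (lower) of all genes.

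The small differences of the nuclear genes were mostly of the same sign. The log2 fold change of anti-CD4 over PBS was above 0 for 72 of the 82 (87.8%), whereas 49.9% of all tested genes were above 0. Their median was 0.11, next to -0.000326 for all tested genes, and values ran from -0.89 (Cox4i2) to 0.45 (Cox8b). Of the 13 mitochondrial mRNAs, 5 were above 0, the median was -0.07 (0.058 without PBS 2), and values ran from -0.55 (mt-Co2) to 0.25 (mt-Atp6). With the counts of nuclear pseudogene copies added, 7 of 13 were above 0, the median was 0.036, and the lowest was mt-Nd6 at -0.48. These genes share tumours and libraries, so the counts are descriptions and no test was made on them. With log2 library total as a covariate, the nuclear median was -0.054, on the other side of 0.

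**Figure D1:**
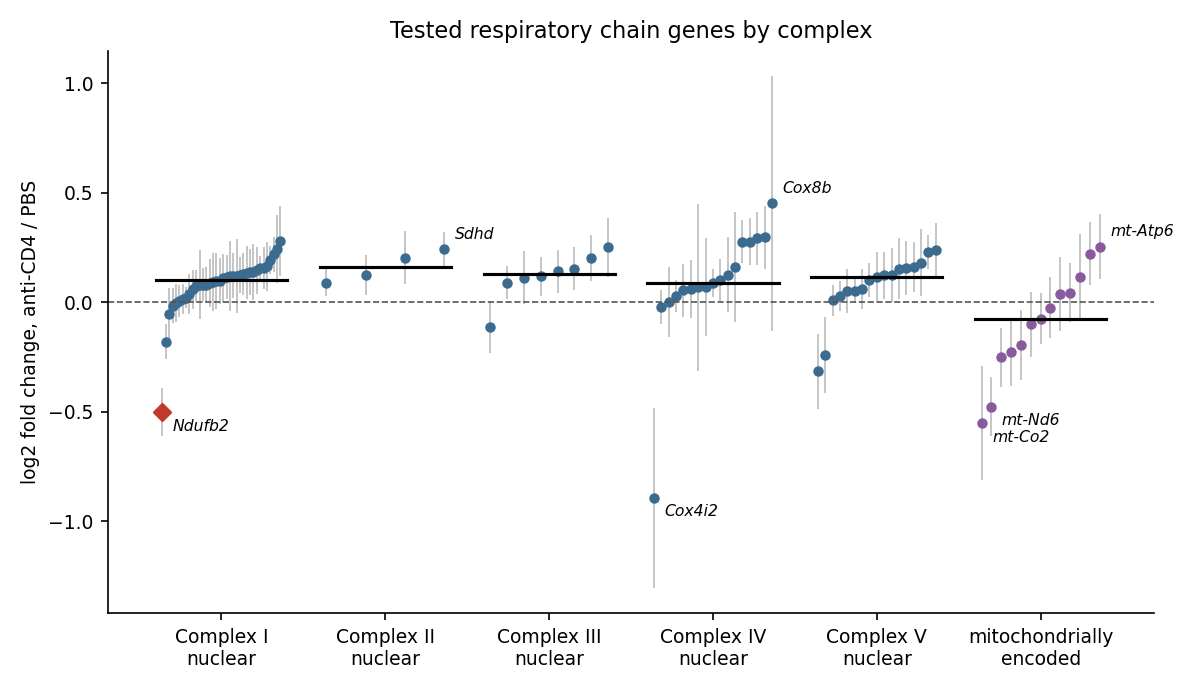
Log2 fold change (anti-CD4 over PBS, y axis) of the 95 tested genes, by complex (x axis), with approximate standard errors (grey bars), set medians (black lines) and the median of all tested genes (dashed). Ndufb2 (red diamond) is the only gene past the threshold; 72 of 82 nuclear points lie above 0, and 5 of 13 mitochondrial points do as deposited.

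In complex I, the NADH dehydrogenase, 31 of 36 tested nuclear genes had values above 0 (median 0.10). Ndufb2, an accessory subunit of the membrane arm, was the gene that fell. Ndufb2 (chr6:39592574-39603382, plus strand, GRCm38) had 22.8 CPM in the lowest, 29.8 in the median and 36.7 in the highest PBS tumour, and 17.5, 20.3 and 25.6 CPM after anti-CD4. The groups touched only through PBS 1 (22.8 CPM) and anti-CD4 1 (25.6 CPM): 5 of 6 anti-CD4 tumours lay below every PBS tumour. The log2 fold change was -0.50 (SE 0.11, edgeR adjusted p = 0.0305).

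The Ndufb2 call was not stable. The call was lost when PBS 2, PBS 6, anti-CD4 2, anti-CD4 5 or anti-CD4 6 was left out (adjusted p 0.0528 to 0.0823), and with library total as a covariate the log2 fold change of Ndufb2 was -0.32 (adjusted p = 0.315). That covariate left 0 of all 17940 genes called higher and 5 called lower (0.0279%). The Ndufb2 annotation shares 146 exon bases with Braf on the opposite strand, and no source used here says if reads were assigned by strand. Braf, a kinase gene, had a log2 fold change of 0.08 (adjusted p = 0.340).

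No other complex I gene passed the adjusted test, though some came near to keeping the groups apart. Ndufs1, a core subunit that carries iron-sulphur clusters, was nearly level, at 81.6 ± 3.37 CPM after PBS and 82.8 ± 4.41 CPM after anti-CD4 (SD, n = 6). Ndufa6, an accessory subunit, had a log2 fold change of 0.19 (adjusted p = 0.0775), and Ndufv3 one of 0.16 (adjusted p = 0.0921). For each of them, 5 of 6 anti-CD4 tumours lay above every PBS tumour. Both were named after their values were seen, as was Ndufs4, an accessory subunit needed for a stable complex I (0.22, adjusted p = 0.0987). For Ndufs4, 4 of 6 anti-CD4 tumours lay above every PBS tumour. At the low end, Ndufb7 stood at -0.18 (adjusted p = 0.164) and at the high end Ndufa1 at 0.24 and Ndufb4c at 0.28 (adjusted p = 0.260). Ndufb4c is identical to Ndufb4 over 390 bases and drew 2.01 times its counts, so the split between the pair is uncertain.

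Complex II, succinate dehydrogenase, is the one complex with no mitochondrially encoded subunit and also a TCA cycle enzyme. Its 4 genes were all above 0: Sdha, the flavoprotein, at 0.09, Sdhb, the iron-sulphur subunit, at 0.20, and the membrane anchors Sdhc and Sdhd at 0.12 and 0.24. Sdhd had 50.8 CPM in the lowest, 57.1 in the median and 70.0 in the highest PBS tumour, and 60.9, 68.0 and 78.1 CPM after anti-CD4. PBS 1 was the high PBS tumour, above 4 of the 6 anti-CD4 tumours, and only 2 anti-CD4 tumours were above it. The difference did not pass the adjusted test (SE 0.08, adjusted p = 0.0776). Without PBS 1 it did (0.31, adjusted p = 0.0206).

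In complex III, which passes electrons from ubiquinol to cytochrome c, 7 of 8 genes were above 0 (median 0.13). The core protein genes Uqcrc1 and Uqcrc2 were at 0.14 and 0.20, and the small subunit Uqcr10 at 0.25 (adjusted p = 0.229). Uqcrb, the ubiquinone-binding subunit, was the one below 0, at -0.11. Uqcrh, the hinge protein, was at 51.0 ± 5.20 CPM after PBS and 54.3 ± 4.78 CPM after anti-CD4 (SD, n = 6).

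In complex IV, cytochrome c oxidase, 15 of 17 tested nuclear genes were above 0 (median 0.09). Cox6b1, which faces the intermembrane space, had 57.5, 60.2 and 81.2 CPM in the lowest, median and highest PBS tumours and 62.6, 77.2 and 88.3 CPM after anti-CD4. One PBS tumour, PBS 1, reached into the upper anti-CD4 range, and the other PBS tumours were at 65.3 CPM or less. The log2 fold change of Cox6b1 was 0.28 (SE 0.10, adjusted p = 0.0954), and 0.37 (adjusted p = 0.0225) without PBS 1. Cox5a, a nuclear-encoded subunit on the matrix side, was at 0.10, Cox6c at -0.02 and Cox7b at 0.13.

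The remaining tissue isoforms of complex IV were scarce. Cox4i2, the isoform linked to lung and low oxygen, had 0.23 to 0.71 CPM after PBS and 0.09 to 0.40 CPM after anti-CD4, and did not pass the test (log2 fold change -0.89, SE 0.41, adjusted p = 0.173). Its usual partner Cox4i1 had 131 ± 15.6 and 134 ± 8.81 CPM (SD, n = 6). Ndufa4l2, the hypoxia-induced relative of Ndufa4, was at 1.17 to 2.87 CPM over the 12 tumours, with a log2 fold change of 0.07, and Ndufa4 one of 0.0027. The testis isoforms Cox6b2 and Cox7b2, with the pseudogenes Ndufa11b and Cox6c2, were below the filter with at most 114 counts over all 12 tumours, and Cox8c and Ndufs6b had 0.

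In complex V, 15 of 17 genes were above 0 (median 0.12). Atp5c1, the rotating gamma subunit, had 72.8 to 94.1 CPM after PBS and 85.0 to 110 CPM after anti-CD4, with 3 anti-CD4 tumours above the highest PBS tumour. Its log2 fold change was 0.23 (SE 0.08, adjusted p = 0.0843). Atp5b, the catalytic beta subunit and on average the most abundant nuclear member per kilobase of exon (158 CPM per kb after PBS), was at 0.12, Atp5o at 0.24 and the small subunit Atp5k at -0.24 (adjusted p = 0.367). Atp5g2, one of 3 genes for the c ring, was at -0.32 as deposited, but its identical processed copy Gm10175 held 94.0% of their joint counts. With the copies added, Atp5g2 was at 0.14 (SE 0.06, adjusted p = 0.138).

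**Figure D2:**
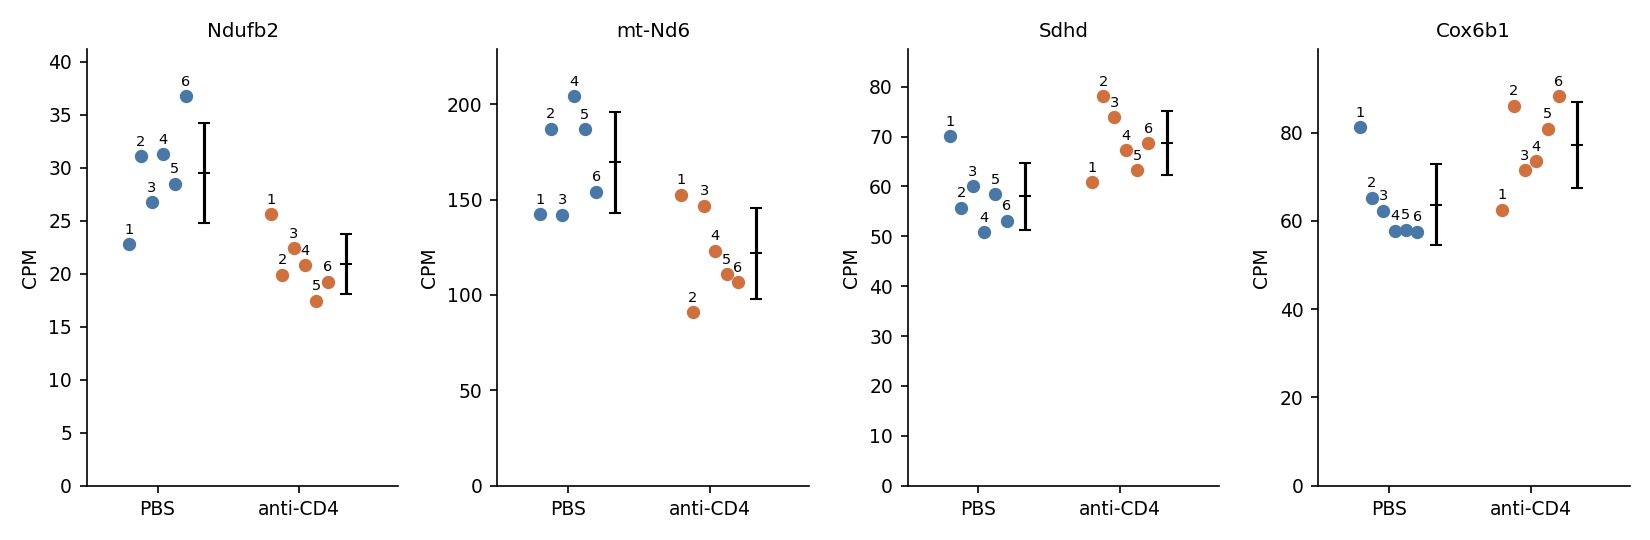
CPM (y axis, from 0) of Ndufb2, mt-Nd6, Sdhd and Cox6b1 in each tumour, numbered as in the labels, with mean and SD of the 6 tumours of a group (black). For Ndufb2, 5 of 6 anti-CD4 tumours are below every PBS tumour; for Sdhd and Cox6b1, PBS 1 is the highest PBS tumour.

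The 13 mitochondrially encoded mRNAs made up 1.28% to 2.68% of all counts after PBS and 1.71% to 2.01% after anti-CD4 (mean 1.99 ± 0.47% and 1.84 ± 0.11%, SD, n = 6). These shares, and the ratios below, leave out the counts given to nuclear copies. The 88 nuclear genes made up 0.363% to 0.469% of counts after PBS and 0.372% to 0.465% after anti-CD4. Mitochondrial over nuclear counts ran from 2.74 (PBS 1) to 6.31 (PBS 4) after PBS and from 3.84 to 5.07 after anti-CD4. For all 3 quantities the anti-CD4 range lay inside that of PBS, and PBS 1 combined the lowest mitochondrial with the highest nuclear share.

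Depth went with the nuclear share in part. The tumours with the highest nuclear shares, PBS 1, anti-CD4 6, anti-CD4 2 and anti-CD4 5, had library totals of 41.93, 62.06, 43.44 and 48.72 M. Those with the lowest, PBS 4 and anti-CD4 1, had 30.75 and 34.45 M. Against this, anti-CD4 4 had the next to largest library (51.81 M) with a share of 0.398%, and PBS 2, at 35.56 M, had 0.431%. The part of depth in the nuclear differences was not tested beyond the fit with library total as a covariate given above.

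**Figure D3:**
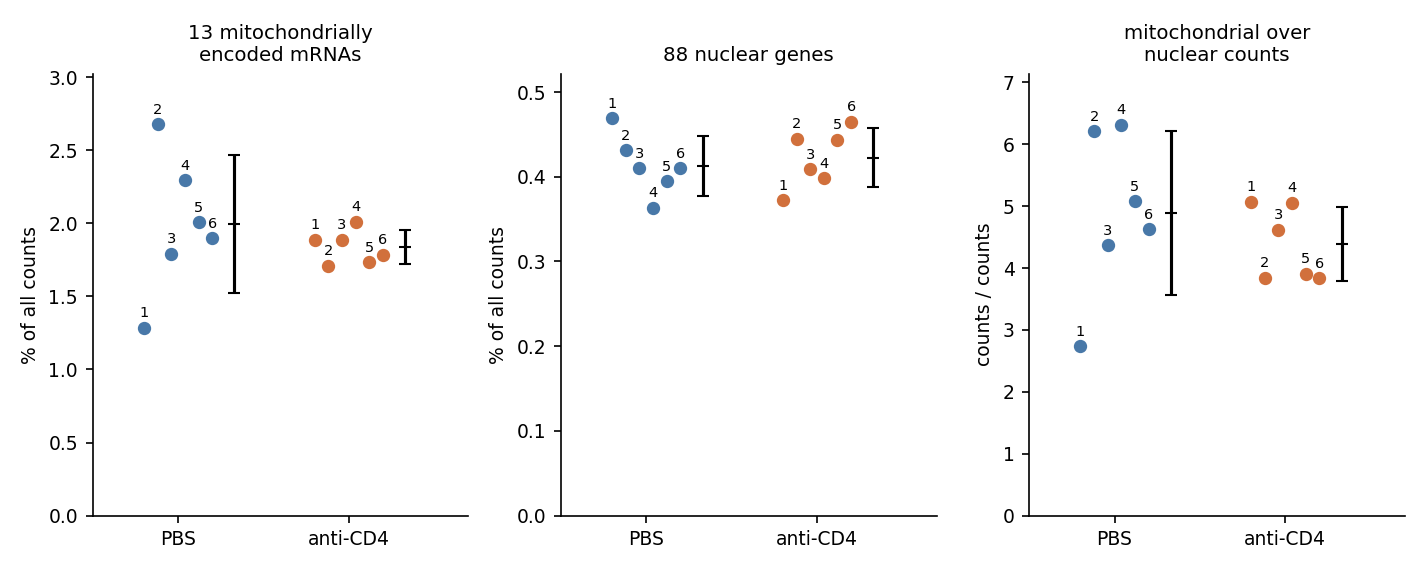
Share of all counts (%) from the 13 mitochondrially encoded mRNAs and from the 88 nuclear genes, and the ratio of these counts, as deposited, in each tumour (numbered), with mean and SD of the 6 tumours of a group (black). The anti-CD4 tumours lie within the PBS range for the mitochondrial share and the ratio.

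Per kilobase of exon, every mitochondrial mRNA exceeded every nuclear member after PBS. The lowest, mt-Co2, had 224 CPM per kb as deposited, against 158 for Atp5b. After anti-CD4, mt-Co2 as deposited had 153 CPM per kb, below Atp5b (172) and Cox8a (167), and the other mitochondrial mRNAs stayed above the nuclear members. mt-Co1, the catalytic subunit of complex IV, was the most abundant at 6572 CPM per kb and held 52.5 ± 1.74% of mitochondrial mRNA counts after PBS and 52.7 ± 1.51% after anti-CD4 (SD, n = 6). Its log2 fold change was -0.02. mt-Co3 followed at 2357 CPM per kb, then mt-Atp6 at 1846 and mt-Cytb, the cytochrome b of complex III, at 1526. These levels and shares are of counts as deposited. With the counts of nuclear copies added, the PBS mean of mt-Co2 was 1246 CPM, against 153 CPM as deposited, and it was no longer the lowest. mt-Co1 stayed the highest, at 10652 CPM. Fold changes of mt-Cytb, mt-Nd1, mt-Nd2 and mt-Nd4 were 0.04, -0.07, 0.04 and -0.10, and mt-Nd4l stood at -0.23.

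mt-Nd6 and mt-Nd5 were the lower ones among complex I mRNAs. mt-Nd6, the only mRNA transcribed from the light strand of mitochondrial DNA (chrM:13552-14070, minus strand), had 142, 171 and 204 CPM in the lowest, median and highest PBS tumours and 91.1, 117 and 153 CPM after anti-CD4. In 4 of 6 anti-CD4 tumours it was below every PBS tumour. The log2 fold change was -0.48 (SE 0.13) and missed the threshold (edgeR adjusted p = 0.0555). DESeq2 called it lower, at -0.46.

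The range for mt-Nd6 over the alternatives was -0.55 to -0.23, with adjusted p 0.00766 to 0.483. It passed the test without PBS 1, anti-CD4 1 or anti-CD4 3. mt-Nd5, whose annotation overlaps that of mt-Nd6 by 14 bases on the opposite strand, was at -0.25 (adjusted p = 0.236). No source used here says if reads were assigned by strand. RNA from the strand opposite mt-Nd6 may thus have been counted as mt-Nd6, which was not tested. As a share of deposited mitochondrial mRNA counts, without those of nuclear copies, mt-Nd5 held 3.91% to 4.64% after PBS and 3.16% to 3.77% after anti-CD4. This was the only one of the 13 whose shares did not overlap between groups, which was noticed after the values were seen and was not tested. mt-Nd6 held 0.696% to 1.08% and 0.507% to 0.814%.

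The nuclear copies changed the reading of several mitochondrial genes. For mt-Co2, the copies on chromosomes 1 and 2 held 9.15 times its counts, 90.1% of the sum. As deposited, mt-Co2 had 84.3 to 219 CPM after PBS and 67.2 to 143 CPM after anti-CD4, or -0.55 on the log2 scale (SE 0.26, adjusted p = 0.192). With copies added, mt-Co2 had 930 to 1829 and 1213 to 1386 CPM, and the log2 fold change was 0.04 (SE 0.13, adjusted p = 0.847). The deposited mt-Co2 value thus holds a minor share of the counts given to these near-identical loci.

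mt-Co3 moved in the same way, from -0.19 to 0.07 with its identical copy Gm28437 (783 bases). mt-Atp6 went from 0.25 to 0.17 with Gm10925 and mt-Nd3 from 0.22 to 0.21. mt-Nd4 and mt-Nd4l also have identical copies, but 0 counts were assigned to those, and mt-Nd1, mt-Nd6, mt-Cytb and mt-Atp8 have no copy in the annotation at 95% identity over 100 bases. The median of the 13 with copies added was on the other side of 0, as given above, and 0 were called.

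**Figure D4:**
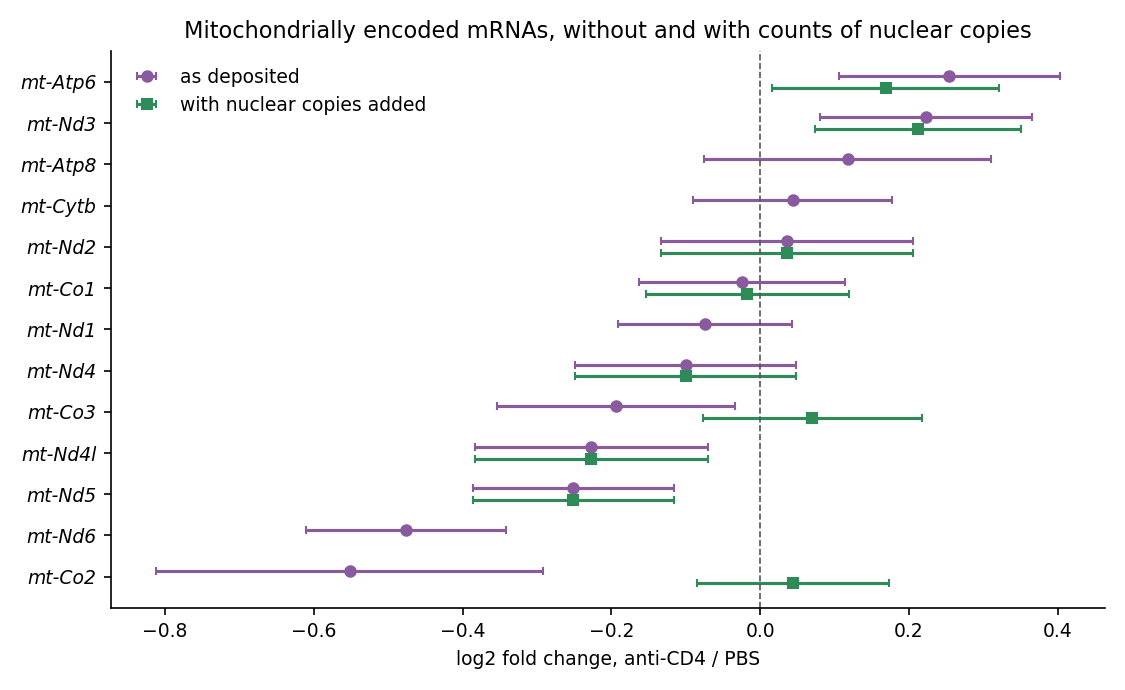
Log2 fold change (anti-CD4 over PBS, x axis) of each mitochondrially encoded mRNA, as deposited (circles) and with the counts of nuclear pseudogene copies added (squares, where a copy exists), bars showing approximate standard errors. mt-Co2 moves from -0.55 to 0.04 and mt-Co3 from -0.19 to 0.07.

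The muscle isoforms of complex IV were measured at low levels and did not differ by the test. Cox8b (chr7:140898945-140900446, minus strand) had 0.20, 0.69 and 2.15 CPM in the lowest, median and highest PBS tumours and 0.74, 1.13 and 2.69 CPM after anti-CD4, or 0.45 on the log2 scale (SE 0.58, adjusted p = 0.633). Cox6a2 had 0.29, 0.96 and 2.21 CPM after PBS and 0.82, 0.96 and 1.53 CPM after anti-CD4, or 0.07 on the log2 scale (SE 0.38, adjusted p = 0.923). Cox7a1 had 0.46, 0.82 and 1.42 CPM after PBS and 0.81, 0.89 and 1.15 CPM after anti-CD4, or 0.16 on the log2 scale (SE 0.25, adjusted p = 0.697). All 3 were wide within PBS and overlapped fully or nearly so between the groups.

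Their widely expressed partners were far higher and less variable. Per kilobase of exon after PBS, Cox6a1 had 86.4 CPM per kb against 1.54 for Cox6a2, Cox7a2 had 34.5 against 1.60 for Cox7a1, and Cox8a had 137 against 2.81 for Cox8b. Log2 fold changes were 0.30 for Cox6a1 (adjusted p = 0.2003), 0.28 for Cox7a2 (adjusted p = 0.113) and 0.29 for Cox8a (adjusted p = 0.137). All 3 passed under limma voom with sample weights, which called 26 nuclear genes higher while calling 15.7% of all genes higher.

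Skeletal muscle markers varied widely over the tumours, and Cox8b went with them. The summed level of 20 markers (among them Acta1, Ckm and the fast myosins Myh1, Myh2 and Myh4) was 261 to 1857 CPM after PBS and 412 to 1991 CPM after anti-CD4. PBS 2, 4 and 5 and anti-CD4 1, 3 and 4 were the high tumours, and in them Cox8b was at 1.04 CPM or more, against 0.92 CPM or less in the other 6. Cox6a2 (0.91 to 2.21 against 0.29 to 0.98 CPM) and Cox7a1 (0.83 to 1.42 against 0.46 to 0.93 CPM) overlapped between these sets, anti-CD4 3 being the lowest of the high tumours for both. Of the 20 markers, 0 passed the test in either direction (18 above 0, median 0.17; at unadjusted p, 0 higher and 1 lower). Of 5 cardiac muscle markers, 3 were tested, all below 0 (median -0.76), and 0 passed. Among them, Tnnt2 had 1.04 to 1.56 CPM after PBS and 0.44 to 0.96 CPM after anti-CD4 (edgeR adjusted p = 0.0507). Its ranges did not overlap, as for 1.2% of all tested genes in that direction. Of 5 brown fat markers, Ucp1 (at most 0.24 CPM), Cidea (at most 0.12 CPM) and Elovl3 (at most 0.11 CPM) were at or near 0. Otop1 had 0.15 to 0.54 CPM after PBS and 0.27 to 0.74 CPM after anti-CD4. Dio2 had 1.33 to 3.13 CPM after PBS and 1.43 to 3.98 CPM after anti-CD4. Neither passed the test (log2 fold changes 0.16 and 0.31, edgeR adjusted p = 0.787 and 0.476). The part of muscle tissue in these values was not tested beyond a fit with a muscle score as a covariate, which called 5 of 82 nuclear genes higher (Atp5c1, Cox6b1, Cox7a2, Cox8a and Sdhd), beside 5.47% of all genes, and Ndufb2 and mt-Nd6 lower, beside 4.79%.

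**Figure D5:**
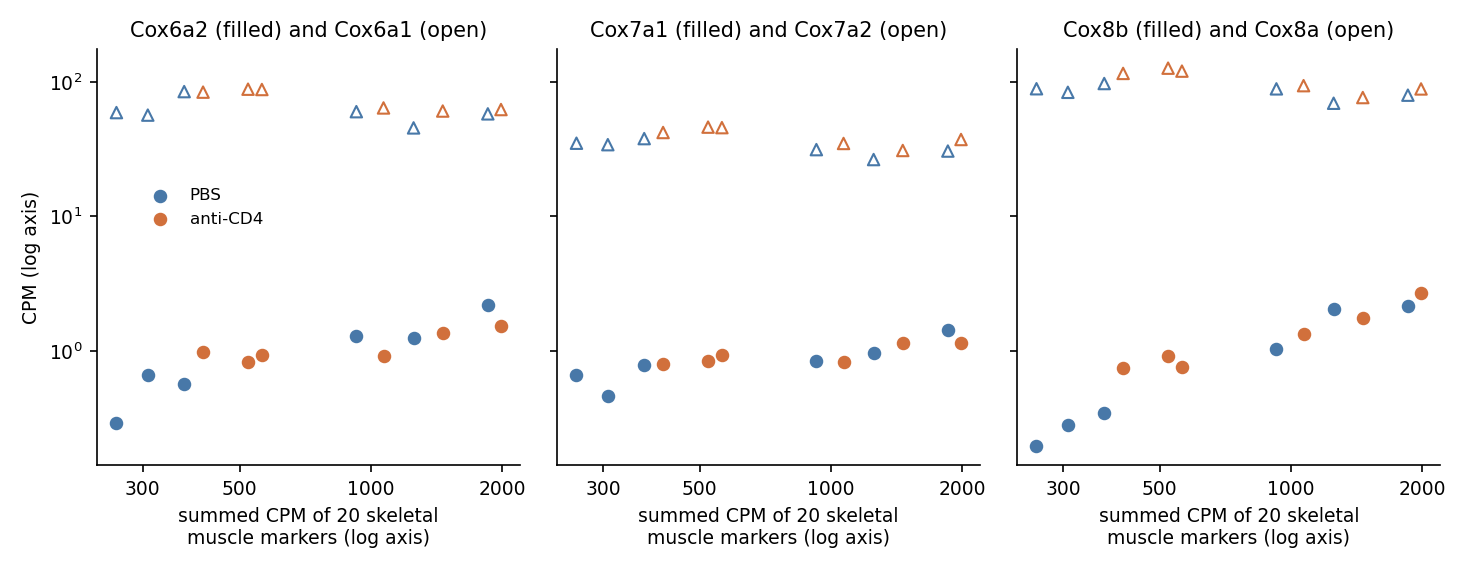
CPM of each muscle isoform (filled circles) and its widely expressed partner (open triangles) in the 12 tumours against the summed CPM of 20 skeletal muscle markers, both axes logarithmic, PBS in blue and anti-CD4 in orange. Cox8b is at 1.04 CPM or more in the 6 tumours with most marker RNA and at 0.92 CPM or less in the others, while Cox6a2 and Cox7a1 overlap between these sets of tumours.

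Genes that build and serve the chain were described from 7 further lists. Of 47 tested assembly factors and of 21 other subunits and carriers, 0 passed in either direction (medians 0.05 and 0.06; at unadjusted p, 2 higher and 2 lower, and 2 higher and 0 lower). Among the latter, cytochrome c1 (Cyc1) was at 0.10, cytochrome c (Cycs) at 0.06 and Ndufab1 at 0.06. Of 78 mitochondrial ribosomal protein genes 0 passed, 68 were above 0 and the median was 0.10. Of 23 genes of protein import and cristae 0 passed, with a median of 0.09. In these 2 lists, 7 and 5 genes were higher and 1 and 0 lower at unadjusted p under 0.05. Of all tested genes, 13.4% were higher and 14.7% lower at that threshold.

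The TCA cycle list held the most calls. Of 18 tested genes 17 were above 0 (median 0.15), beside 49.9% of all tested genes. At unadjusted p under 0.05, 8 were higher and 0 lower, beside 13.4% and 14.7% of all tested genes. By the adjusted test 3 rose and 0 fell, beside 2.95% and 2.33%. These were Pdha1, the pyruvate dehydrogenase E1 subunit (145 ± 10.6 CPM after PBS, 167 ± 6.18 CPM after anti-CD4, log2 fold change 0.21, adjusted p = 0.0397), Ogdh of the oxoglutarate dehydrogenase complex (0.22, adjusted p = 0.0452) and Dld, the E3 subunit of both (0.19, adjusted p = 0.0485). For each of the 3 the ranges of the groups overlapped. Each was called in 2 of 12 fits that left out 1 tumour, those without PBS 1 and without anti-CD4 1. Over the alternatives, adjusted p was 0.00324 to 0.349 for Pdha1, 0.00391 to 0.438 for Ogdh and 0.0086 to 0.397 for Dld, and all 3 stayed above 0. In mitochondrial gene expression, 1 of 39 genes rose (Tfb2m, a transcription factor of mitochondrial DNA, 0.30, adjusted p = 0.0323) and 1 fell (Gfm2, a factor in ribosome recycling, -0.26, adjusted p = 0.0431). Without single tumours, Tfb2m was called in 5 of 12 fits and Gfm2 in 3.

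Among 14 tested regulators 1 rose, beside 2.95% of all tested genes. This was Gabpa, an ETS factor known to act on respiratory promoters (80.7 ± 5.40 CPM after PBS, 97.4 ± 7.71 CPM after anti-CD4, SD, n = 6; log2 fold change 0.27, SE 0.06, adjusted p = 0.0308). Gabpa was above 0 in all 24 alternatives and was called in 5 of the 12 fits without single tumours, but not with library total as a covariate (highest adjusted p over the alternatives 0.280). Its exons overlap those of Atp5j on the opposite strand, and Atp5j, a complex V gene, was at 0.05. Nrf1, Tfam, Ppargc1a and Esrra were at 0.03, 0.0039, 0.12 and -0.20, and did not pass. Leukocyte markers lay in the other direction, with all 8 below 0. By the adjusted test 2 fell, Cd2 (-1.64, adjusted p = 0.0376) and Laptm5 (-0.38, adjusted p = 0.0472), beside 2.33% of all tested genes. They were called in 5 and 3 of the 12 fits without single tumours. At unadjusted p under 0.05, 0 of the 8 markers were higher and 6 lower, beside 13.4% and 14.7% of all tested genes. The summed level of the 8 markers was 1332 to 1955 CPM after PBS and 1263 to 1601 CPM after anti-CD4. Their part in the values of the respiratory genes was not tested.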

How the data were processed

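RNA of 12 subcutaneous AB1-HA tumours (6 PBS, 6 anti-CD4) was sequenced as 100-base pairs, per the labels' protocols. The authors deposited 1 table of estimated counts per gene symbol, of which 35.7% to 37.9% of values per tumour are not whole. The submitters' processing notes name bcl2fastq 2.20.0.422, kallisto (no version) and GRCm38.p6. Its settings for strand, and the step from transcripts to genes, are not stated in those notes. Such estimates divide reads between identical sequences, which bears on genes with copies.

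Counts were rounded. edgeR 4.0.16 (R 4.3.3; filterByExpr, TMM, quasi-likelihood F test with robust fit, Benjamini-Hochberg over 17940 genes, adjusted p under 0.05) compared the groups with no covariate. Standard errors are the log2 fold change divided by the root of F, and so approximate. Alternatives were RLE and upper quartile scaling, library sizes that leave out haemoglobin, antigen receptor segments and the mitochondrially encoded genes, DESeq2 1.42.0, limma 3.58.1 voom with sample weights, other count filters, a replicate block, library total or muscle score as a covariate, leaving out each tumour, and leaving out anti-CD4 3 and 4. Adding copy counts was chosen after seeing the data. Copies were transcripts annotated as pseudogenes in GENCODE (GRCm38) aligning over at least 100 bases at 95% identity (blastn 2.17.0), and 53 of them belonged to 29 genes. Annotation was matched by symbol for 35903 of 35999 rows. Exon lengths are the union of annotated exons.

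The members and lists were chosen with earlier results of these data known, so no list was tested. Named genes were all mitochondrial mRNAs, tissue isoforms with their partners, 1 chosen nuclear subunit per complex, called genes, and the 2 highest and 2 lowest per nuclear complex. Of the related lists, called genes were named, and Cyc1, Cycs, Ndufab1, Nrf1, Tfam, Ppargc1a and Esrra were added after their values were seen.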

Additional observations from a re-analysis of the deposited data

Results flagged for a closer look

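In 4 of 100 groups of 6 tumours checked, 1 tumour stood apart from the other 5 by Dixon's criterion, and chance alone gives about 1 in 20. PBS 1 was highest for Cox6a1 (84.7 CPM, next 60.1), for Cox6b1 (81.24 CPM, next 65.3) and for Ndufb4c (15.9 CPM, next 11.8). PBS 2 was highest for mt-Cytb (2619 CPM, next 1683). PBS 1 also had the largest library of the PBS group (41.93 M counts) and the lowest mitochondrial share (1.28%).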

How the results depend on the processing

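Counts of called genes depended on the settings, which also moved the counts over all genes (29 to 1160 higher and 31 to 1480 lower when 1 tumour was left out). Nuclear genes called higher, 0 in the main analysis, were 4 with DESeq2, 26 with limma voom, 5 with the muscle score and 0 to 7 without single tumours (5 without PBS 1, 7 without anti-CD4 1). Nuclear genes called lower, 1 in the main analysis, were 0 with library total as a covariate, which left 0 higher and 5 lower of all genes, and 0 to 1 without single tumours. Mitochondrial mRNAs called lower, 0 in the main analysis, were 1 with DESeq2, 2 with limma voom, 1 with the muscle score and 0 to 3 without single tumours (3 without PBS 1: mt-Nd6, mt-Nd5 and mt-Nd4l). None was called higher in any of the 24 alternatives. The nuclear median moved from 0.11 to -0.054 with library total as a covariate, and was 0.07 to 0.17 without single tumours. The mitochondrial median, -0.07 in the main analysis, was -0.14 to 0.058 without single tumours (0.058 without PBS 2) and 0.043 with library total as a covariate. The causes of these shifts were not tested.

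With the replicate block, 0 nuclear genes were called lower (Ndufb2 -0.50, adjusted p = 0.107) and the calls of Pdha1, Ogdh, Dld, Tfb2m, Gfm2, Gabpa, Cd2 and Laptm5 were lost, while 19 genes of all tested were higher and 14 lower. No label says that the numbers pair the tumours. Correlations of same-numbered tumours ran from -0.41 to 0.23, and 0 of 6 correlated best with its own number. Such correlations cannot exclude a shared batch. The muscle isoforms lay at 0.20 to 2.69 CPM, and 6 genes were under the filter and were not tested.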
